A study of Mus musculus with 2 samples.

Results

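Natural killer cells were described here among the cells of whole lung digests from mice with a mutant surfactant protein C. A cell was counted as a natural killer (NK) cell where at least 3 of the 7 genes Ncr1, Klrb1c, Klra8, Klre1, Eomes, Nkg7 and Gzma had a unique molecular identifier (UMI, the tag of 1 captured RNA molecule). Ncr1 or Klrb1c had to be among them, and the T cell genes Cd3e and Cd3g, the B cell gene Cd79a and the macrophage gene Marco had to be at 0. This rule found 97 cells of the 4688 whose barcodes showed 200 or more genes with mitochondrial RNA at or under 15%, and 14 of them were in the injured library and 83 in the control library. The cells were thus chosen by the UMI counts of these 7 genes and of the 4 excluded ones, so those levels are given below only as a description.

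The 2 libraries came from C57BL/6 mice of 1 genotype, named SP-CI73T mutant in the labels, in which surfactant protein C, a product of alveolar type 2 cells, carries the I73T change. Lungs were lavaged, perfused and digested with collagenase D for 30 min, and libraries were made with 10x 3′ version 3 chemistry. The series design set tissue taken 14 days after injury, here the injured library, against tissue at steady state, the control library. The protocol text, the same for both libraries, gave a single gavage of 175 mg/kg tamoxifen in corn oil, which removes a neomycin cassette and raises the mutant protein. The treatment tags contradict the titles: untreated is the tag of the injured library, and the control library carries the tag of tamoxifen treatment. Groups follow the titles, and every direction below holds for the libraries as titled. The number of animals behind each library was not stated. Lavage before digestion removes cells of the airspace, so the NK cells described are those left in the tissue.

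NK cells are lymphocytes that kill infected or transformed cells without a rearranged antigen receptor. Their granules hold perforin, which opens the membrane of the target, and granzymes, which start its death. A balance of activating receptors and of inhibitory receptors for MHC class I, in mice mainly the Ly49 family, decides whether they act. They depend on interleukin 15 and are driven by the transcription factors Eomes and T-bet, and in mice they are held to mature as they gain CD11b and lose CD27. The lung is one of the tissues in which NK cells of the mature kind are common.

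After the filters the injured library held 2346 cells with 20927132 UMIs, a median of 3361.5 per cell, and the control library held 2342 cells with 16552339 UMIs, a median of 4513.5 per cell. The NK cells were closer in depth, with medians of 3808.5 UMIs in injured and 4147 in control and medians of 1846.5 and 1821 genes. All injured NK cells together held 57592 UMIs and all control NK cells 355602, so 1 count was worth 17.4 counts per 1000000 of the sum (CPM) in injured and 2.81 CPM in control. The deepest injured NK cell held 12.1% of the injured NK UMIs. With 1 library per group the report holds sizes and no tests or p-values. The 95% intervals measure nothing beyond counting error. Among genes with at least 50 counts over both NK sums, those whose CPM differed 2-fold or more were called higher or lower.

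The label was checked against genes that the rule did not use. Klrd1, the CD94 partner of NKG2 receptors, had a UMI in 14 of 14 injured and 78 of 83 control NK cells. The activating receptor NKG2D, encoded by Klrk1, was found in 14 and 80 cells, the interleukin 15 receptor chain Il2rb in 14 and 80, and Txk, a kinase of T and NK cells, in 12 and 77. The perforin gene Prf1 had a UMI in 10 of the 14 injured and 81 of the 83 control cells, and Tbx21, which encodes T-bet, in 8 and 40. Klra4, a Ly49 receptor gene, was found in 7 and 69 cells. The chemokine gene Xcl1 was sparse, with 8 counts in injured and 45 in control NK cells, 44.4% and 43.3% of its library counts. Cells without a UMI numbered 0 injured and 0 control for Ccl5, 0 and 1 for Fcer1g, and 1 and 1 for Tyrobp. In B cells, where Prf1 should be absent, 1.9% of injured and 0.6% of control cells had a UMI of it. The T cell genes Cd4, Cd8a, Cd8b1 and Cd5 were at 0 in all 97 cells. Cd3d or Trac had a UMI in 0 of the 14 injured and 6 of the 83 control NK cells, against 44 of 47 and 106 of 110 CD8 T cells for Cd3d alone. Trbc1 had a UMI in 9 of the 14 injured and 61 of the 83 control NK cells. Its level was 695 CPM in injured and 470 CPM in control NK cells, against 506 and 856 CPM in CD8 T cells. In the same order, Trbc2 stood at 191, 127, 768 and 1584 CPM, and Cd28 at 69.5, 25.3, 167 and 267 CPM. In NK cells the 11 T cell markers summed to 955 CPM in injured and 638 CPM in control, 1.496-fold (1.09 to 2.02) higher. The rule genes themselves were less complete in injured cells. 5 of 14 injured and 1 of 83 control cells held exactly 3 of them, while 0 injured and 6 control cells held all 7. Just outside the rule stood 2 injured and 0 control cells with Ncr1 or Klrb1c and only 2 of the genes, and 5 injured and 7 control cells that met it except for a Cd3e or Cd3g UMI.

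Genes of other cells were low, with a few exceptions. The club cell gene Scgb1a1 had a UMI in 11 of 14 injured and 83 of 83 control NK cells, at 573 CPM in injured and 1845 CPM in control. Its share in B cells was 83.3% in injured and 99.7% in control, so its presence in NK cells was at the level of background RNA. The neutrophil gene S100a8 had 2 counts in injured and 52 in control; in control a pair of cells held 28 and 19 of them. Basophil and mast cell genes were at 0 in both libraries. Doublet scoring marked 44 cells in each library and 0 of the NK cells. 1 barcode occurred in both libraries, and 0 NK cells carried it.

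**Figure D1:**
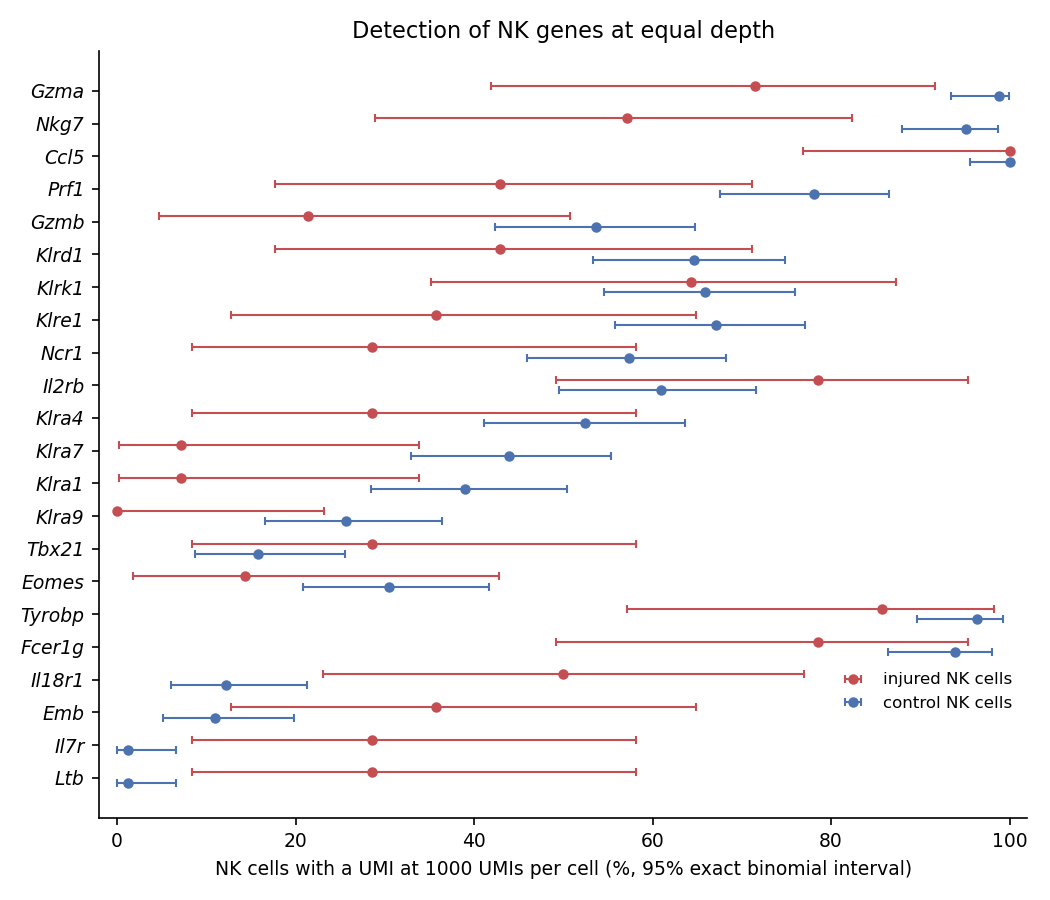
Percent of NK cells with a UMI of each gene after each cell was thinned to 1000 UMIs, with exact binomial 95% intervals, for the 14 injured and the 82 control NK cells deep enough. Rule genes chose the cells and are shown as a description. Gzma had a UMI in 10 injured and 81 control cells, Prf1 in 6 and 64, and Il7r in 4 and 1.

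Granule genes and Ncr1 are what much of the account below turns on, so the sequences before the starts of 3 of them and of Ncr1, the gene of the activating receptor NKp46 that defines the cells, are shown. Each is the 250 bases upstream of the annotated start on the gene's own strand, from RefSeq on GRCm38.p6. Capitals mark the letters TCACAC or their reverse complement GTGTGA, a core of the sites that T-box factors such as Eomes and T-bet bind.
Gzma (chr13:113100982-113101231, minus strand): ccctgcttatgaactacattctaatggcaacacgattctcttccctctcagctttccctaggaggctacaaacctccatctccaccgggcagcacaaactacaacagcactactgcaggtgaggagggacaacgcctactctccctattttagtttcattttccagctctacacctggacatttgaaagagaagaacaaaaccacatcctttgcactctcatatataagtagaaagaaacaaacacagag
Gzmb (chr14:56262335-56262584, minus strand): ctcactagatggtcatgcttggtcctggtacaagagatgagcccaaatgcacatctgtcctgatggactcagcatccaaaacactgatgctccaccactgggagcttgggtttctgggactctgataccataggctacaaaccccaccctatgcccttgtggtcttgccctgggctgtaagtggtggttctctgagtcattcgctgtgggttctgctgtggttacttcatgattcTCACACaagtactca
Prf1 (chr10:61297586-61297835, plus strand): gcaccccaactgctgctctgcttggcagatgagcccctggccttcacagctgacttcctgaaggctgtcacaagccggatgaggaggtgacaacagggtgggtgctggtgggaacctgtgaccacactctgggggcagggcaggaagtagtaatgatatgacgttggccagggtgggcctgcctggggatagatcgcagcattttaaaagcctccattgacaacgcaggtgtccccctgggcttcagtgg
Ncr1 (chr7:4337465-4337714, plus strand): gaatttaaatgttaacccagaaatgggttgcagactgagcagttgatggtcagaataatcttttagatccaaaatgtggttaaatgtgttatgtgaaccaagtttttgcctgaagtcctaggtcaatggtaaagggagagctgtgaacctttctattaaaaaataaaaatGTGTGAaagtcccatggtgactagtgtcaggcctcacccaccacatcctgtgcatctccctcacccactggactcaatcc
The 6 letters stood in 2 of these 4 windows, on the plus orientation in Gzmb, 15 bases before the start, and on the other strand in Ncr1, 80 bases before it. Of the windows of other NK genes that are not printed, that of Nkg7 held them, and those of Klre1, Klrk1, Klra4, Klra8, Klrb1c, Eomes and Tbx21 did not. Among all windows of this length of the RefSeq table, 12.3% (4039 of 32851) held them on at least 1 strand. This is a match of letters and says nothing of binding.

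NK cells made up 0.597% (0.327 to 0.999) of injured cells and 3.54% (2.83 to 4.37) of control cells, so their share was 5.94-fold (3.35 to 11.3) lower in injured. Among cells with a UMI of the leukocyte gene Ptprc the shares were 0.893% (14 of 1567) in injured and 5.63% (83 of 1473) in control. Among NK, T, B and ILC2-like cells together they were 5% (2.76 to 8.25) and 11.4% (9.16 to 13.9). T and B cells also took a smaller share of the injured library. CD8 T cells were 2.0% of injured and 4.70% of control cells, 2.34-fold (1.65 to 3.37) lower in injured. B cells numbered 54 in injured and 318 in control, 5.90-fold lower, while ILC2-like cells numbered 18 and 11. Within the sum of NK and CD8 T cells, NK cells were 23% (13.2 to 35.5) in injured and 43% (35.9 to 50.3) in control. With 1 library each, the group and the library cannot be told apart, and a share of cells captured is not a number of cells in the lung.

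**Figure D2:**
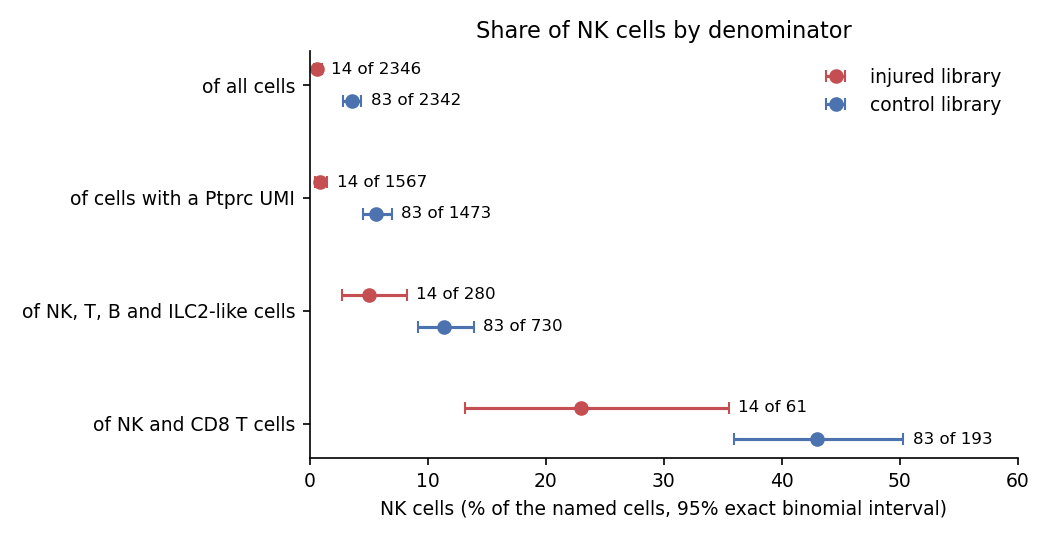
NK cells as a percent of 4 denominators in the injured and the control library, with exact binomial 95% intervals. The injured share was lower under each denominator, from 0.597% against 3.54% of all cells to 23% against 43% of NK and CD8 T cells.

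NK cells, 0.597% of injured and 3.54% of control cells, held 48.4% of all Prf1 counts of the injured library and 81.5% of those of the control library. For Gzmb the shares were 30.1% in injured and 83.5% in control. For Gzma, which helped to choose the cells, they were 63.6% and 89.9%. The chemokine gene Ccl5, which T cells also use, had 22.4% of its injured and 63.7% of its control counts in NK cells. Klrk1 had 22.9% and 74.2%, and Fasl, the gene of a death ligand, 16.1% and 67.2%. Irf8, shared with dendritic cells, monocytes and B cells, had 1.18% of its injured and 21.5% of its control counts there.

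Set against all other cells of the control library, NK cells had 2-fold or higher levels of 300 of 1128 genes with at least 50 NK counts, 26.6%, and in the injured library of 39 of 147, 26.5%. Outside the rule, the 4 genes that stood highest in control by log2 ratio with 50 CPM added were Ccl5, Prf1, Klra4 and Gzmb, with the receptor genes Klrk1, Klrd1, Il2rb and Klra7 after them. Ccl5 reached 18961 CPM in injured NK cells and 18245 CPM in control NK cells, against 181 and 228 CPM in the other cells. Prf1 reached 799 CPM in injured and 1774 CPM in control NK cells, with 2.35 and 8.83 CPM in the other cells. Serpinb9, which protects a killer cell from its own granzyme B, stood at 886 CPM in injured and 672 CPM in control NK cells, against 61.8 and 16.7 CPM in the others. Cma1, a chymase gene that mouse NK cells of the mature kind also transcribe, stood at 260 and 439 CPM, with 0.431 and 1.48 CPM elsewhere. The rule gene Gzma was the extreme, at 7570.5 CPM in injured and 15675 CPM in control NK cells, against 12 and 38.7 CPM in the other cells.

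CD8 T cells, the nearest cytotoxic neighbours, shared some of this profile and lacked other parts of it. In the control library 587 of 2936 genes, 20%, were 2-fold or more higher in NK cells and 255, 8.69%, were lower, and in the injured library 88 of 858, 10.3%, and 82, 9.56%. Irf8, a transcription factor, stood at 677 CPM in injured NK cells with 0 counts in injured CD8 T cells, and at 2106 against 10.6 CPM in control. The adaptor genes Fcer1g and Tyrobp, which couple NKp46 and other activating receptors to kinases, showed the same order. Fcer1g was at 2014 against 178 CPM in injured and at 3175 against 89.1 CPM in control, and Tyrobp at 1771 against 189 CPM and 3279 against 125 CPM. Prf1 stood at 25.5 CPM in injured and 43.9 CPM in control CD8 T cells, and Gzmb at 21.8 and 16 CPM. Klrd1 was shared more widely, at 851 against 280 CPM in injured and 1111 against 218 CPM in control. On the other side stood genes of naive or memory T cells. Ccr7, a lymph node homing receptor, had 0 CPM in injured NK against 466 CPM in injured CD8 T cells, and 5.62 against 638 CPM in control. Dapl1 had 0 counts in NK cells of both libraries, and 328 CPM in injured and 384 CPM in control CD8 T cells. Of the 18 granule genes, 9 of the 12 with enough counts in the control library were 2-fold or more higher in NK than in CD8 T cells. In the injured library it was 5 of 6, and 0 were lower in either library. The 18 include the rule genes Gzma and Nkg7, which helped to choose the NK cells, so these counts are a description.

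Between the libraries, 57 of the 1345 genes with enough counts, 4.24%, were 2-fold or more higher in injured NK cells, and 168, 12.5%, were lower. These shares of all tested genes are the background for each count of list members called below. Of the 1345 genes, 1340 had counts in CD8 T cells, with 5.6% higher and 1.64% lower in injured. In B cells 1325 had counts, with 4.23% higher and 4.3% lower. The minimum of 50 counts was set on the NK sums only. The injured sums came from 14 NK cells, 47 CD8 T cells and 54 B cells. Counting error can pass the 2-fold call, so these shares do not measure how much each cell type differed. The median log2 ratio of all 5466 genes with at least 10 counts, with 50 CPM added to each level, was 0.02.

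The cytotoxic granule genes leaned to the lower side. Of 11 members with at least 50 counts, 0 were higher, 5 were lower and 6 were neither, and the median log2 ratio over 15 members with at least 10 counts was -0.74. Prf1 was 2.22-fold (1.65 to 3.07) lower in injured and Gzmb, at 434 CPM in injured and 1012 CPM in control, was 2.33-fold (1.55 to 3.65) lower. Both calls rest on 6 injured cells with Il7r, described below: without cells that had an Il7r UMI, Prf1 was 1.55-fold (1.12 to 2.21) lower and Gzmb 1.40-fold (0.934 to 2.20) lower. Serpinb6b, an inhibitor of granzyme A, was 3.76-fold lower, with 5 counts in injured and 116 in control. Fasl was 2.06-fold lower, and the rule gene Gzma was 2.07-fold (1.88 to 2.29) lower, or 1.30-fold (1.18 to 1.44) without those cells. Nkg7, needed for granule release and also a rule gene, was at 2223 CPM in injured and 4387 CPM in control, 1.97-fold lower and so just short of the call. The protease gene Ctsw, the proteoglycan gene Srgn and Serpinb9 were neither.

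Single cells spread widely around these sums. Per 10000 UMIs, Gzma had a median of 61.5 and a range of 0 to 207 over the injured cells, and a median of 165 and a range of 0 to 339 over the control cells. 4 of 14 injured and 1 of 83 control cells had no Gzma UMI. Prf1 had medians of 8.90 in injured and 15.1 in control, and Gzmb of 0 and 6.31. Gzma and Prf1 occurred together in 9 of 14 injured (64.3%, 35.1 to 87.2) and 80 of 83 control cells (96.4%, 89.8 to 99.2), and with Gzmb in 6 and 67. When each cell was thinned to 1000 UMIs, Prf1 had a UMI in 6 of the 14 injured and 64 of the 82 control cells, and Gzmb in 3 and 44. Ccl5, a chemokine gene, had per-cell medians of 165 in injured and 158 in control.

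**Figure D3:**
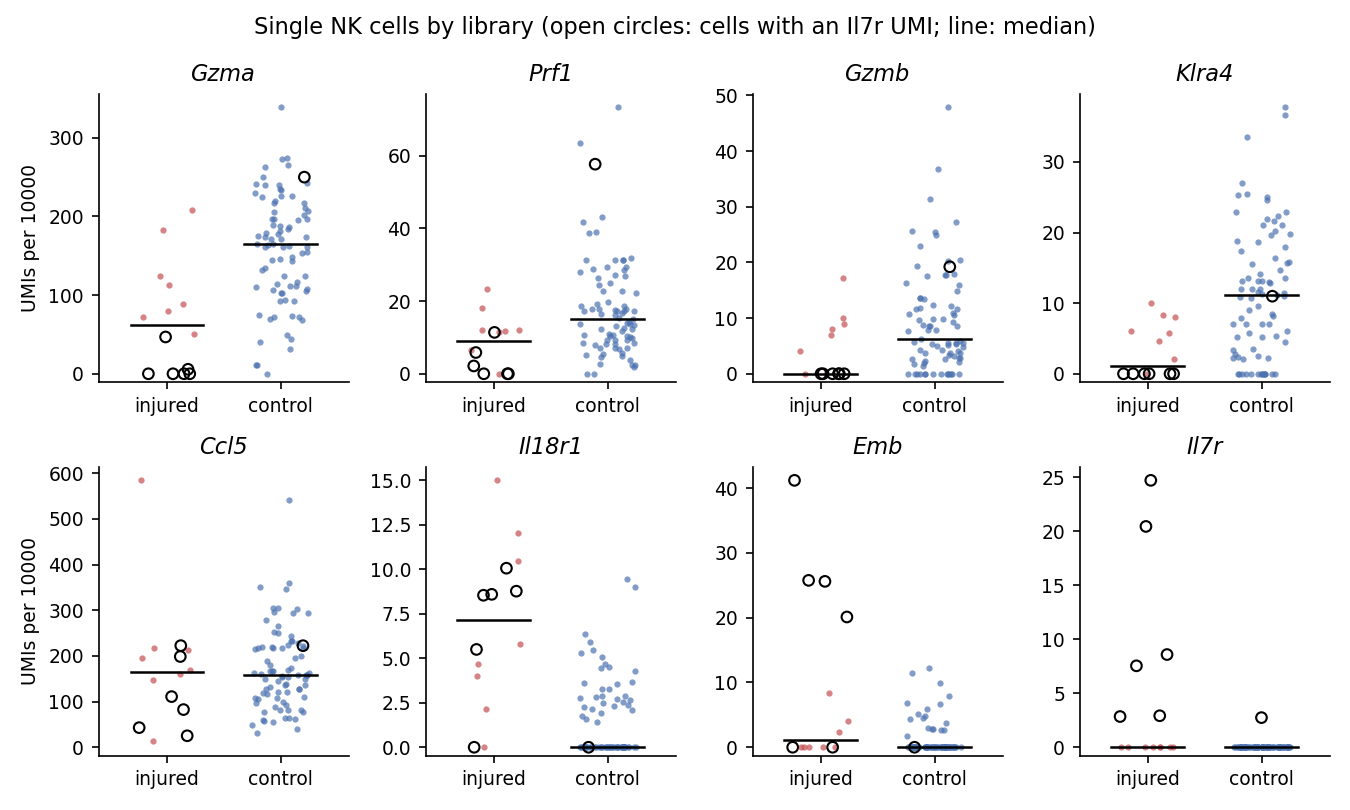
UMIs per 10000 in each NK cell, one point per cell, for genes of the 14 injured and the 83 control cells, with the median as a line and cells with an Il7r UMI as open circles. Gzma spread over the range from 0 upward in injured cells with a median of 61.5, below the control median of 165, while the Ccl5 medians were 165 and 158.

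The Ly49 receptors, which read MHC class I, were next. The Klra genes that encode them are near-identical copies, so counts may be split between neighbours, and each value is uncertain to that extent. Of 4 members with at least 50 counts, 0 were higher, 2 were lower and 2 were neither, and the median over 6 members was -0.91. Klra4, which encodes the activating receptor Ly49D, was at 347 CPM in injured and 1164 CPM in control, 3.35-fold (2.14 to 5.55) lower. Klra7, which encodes the inhibitory Ly49G, was at 278 and 728 CPM, 2.62-fold lower. Klra1 at 191 and 371 CPM and Klra9 at 208 and 236 CPM were neither. Mouse NK cells each use a chance set of these receptors. The number of Klra genes found per cell varied here, but a gene with few UMIs can be missed, so it is not the number used. The 6 Klra genes counted were Klra1, Klra3, Klra4, Klra7, Klra8 and Klra9. Klra8 is a rule gene that helped to choose the cells and had no UMI in the injured ones. The counts per cell and the median over 6 members are therefore a description. Of these Klra genes, 0, 1, 2 and 3 were found in 2, 4, 2 and 6 injured cells, and 4 or 5 in 0. Among control cells 1 held 0, 10 held 1, 13 held 2, 33 held 3, 14 held 4 and 10 held 5 of them. The remaining control cells held all 6. At least 2 were found in 57.1% (28.9 to 82.3) of injured and 86.7% (77.5 to 93.2) of control cells, and after thinning in 0 of 14 and 45 of 82.

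The other lectin-like receptors moved less. Against 12.5% lower among all tested genes, 0 of 7 members were higher, 1 was lower and 6 were neither, with a median of -0.11. The lower one was the rule gene Klre1, at 434 CPM in injured and 1119 CPM in control. Klrk1 was at 1111 CPM in injured and 984 CPM in control, and Klrd1 at 851 and 1111 CPM. Klrc1 and Klrc2, whose products pair with CD94 to read the MHC molecule Qa-1, had 10 and 12 counts in injured and 29 and 33 in control, under the minimum. Among other surface receptors 1 of 3 was lower, the rule gene Ncr1 at 347 CPM in injured and 925 CPM in control, with a median of -0.26. Cd244a, the receptor 2B4, was at 226 and 281 CPM. The checkpoint genes Pdcd1, Lag3 and Havcr2 were at 0 in both.

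Against 12.5% lower among all tested genes, 1 of 8 adaptors and proximal kinases was lower, 0 were higher and 7 were neither. Their median was -0.04. The lower one was the kinase gene Lck, at 122 CPM in injured and 366 CPM in control, 3.01-fold lower. Among 8 transcription factors 0 were higher, 2 were lower and 6 were neither, with a median of 0.07. Irf8 was 3.11-fold (2.25 to 4.41) lower in injured and the rule gene Eomes, at 191 and 394 CPM, was 2.06-fold lower. Tbx21 was at 191 CPM in injured and 183 CPM in control, and Id2, Zeb2, Ets1 and Runx3 were neither. Eomes or Tbx21 had a UMI in 10 of the 14 injured and 73 of the 83 control cells.

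Genes of mature NK cells had 0 higher, 3 lower and 8 neither of 11, with a median of -0.57, and the lower ones were Gzmb, Prf1 and Lgals1. The integrin gene Itgam, which encodes CD11b, was at 295 CPM in injured and 270 CPM in control, and Ly6c2 at 695 and 675 CPM. Genes of immature NK cells had 2 higher, 0 lower and 2 neither of 4, with a median of 0.73 over 10 members. The higher ones were Emb, which encodes the membrane glycoprotein embigin, and Cd7. By the usual pair of markers, Itgam without Cd27 had a UMI in 7 of the 14 injured and 39 of the 83 control cells, both in 1 and 8, Cd27 alone in 3 and 3, and neither in 3 and 33. Cd27 had only 4 counts in injured and 16 in control, so these classes rest on a few UMIs. In the list of ILC1 and residency genes the 1 member with enough counts, Rgs1, was neither, and the median over 4 members was 0.02. Its members summed to 1372 CPM in injured and 425 CPM in control, 3.23-fold (2.43 to 4.27) higher. The immature NK genes summed to 2848 and 973 CPM, 2.93-fold (2.42 to 3.53) higher. Il7r, described below, belongs to both lists.

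Of the cytokine receptors and their signalling genes, 1 of 8 was higher, 0 were lower and 7 were neither, with a median of 0.00. The higher one was Il18r1, the binding chain of the interleukin 18 receptor, which drives interferon gamma in NK cells. It was at 660 CPM in injured and 141 CPM in control, 4.69-fold (2.99 to 7.30) higher, and had a UMI in 12 of the 14 injured and 33 of the 83 control cells. After thinning it was found in 7 of 14 and 10 of 82. Its partner chain gene Il18rap was at 556 and 408 CPM, and Il2rb at 1511 and 998 CPM, 1.51-fold higher and under the call. Interferon gamma itself, Ifng, had 2 counts in injured and 14 in control. Of 4 cytokine and chemokine genes, 1 was lower, Ccl4 at 260 CPM in injured and 768 CPM in control, and 3 were neither, with a median of 0.10.

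Homing and adhesion genes had 1 higher, 1 lower and 9 neither of 11, with a median of -0.21. Cxcr4, a receptor that holds lymphocytes in bone marrow and tissue, was at 538 CPM in injured and 132 CPM in control, 4.07-fold (2.50 to 6.55) higher. Ccr2 and the integrin genes Itgal, Itga4 and Itgb1 were neither.

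Of the 40 interferon-stimulated genes matched in the files, 3 had at least 50 counts, and 0 of them were higher, 2 were lower and 1 was neither, with a median over 19 members of 0.00. The lower ones were Ifi47, with 2 counts in injured and 64 in control, and Ifi203. Isg15 had 0 and 9 counts, and 15 of the 40 members were at 0 in injured and 7 in control. Of 15 MHC class I genes 1 was higher, Tap1 at 226 CPM in injured and 110 CPM in control, 0 were lower and 14 were neither, with a median of -0.12. Neither of 2 cell cycle genes passed the call, with a median of 0.25, and Mki67 had 1 count in injured and 0 in control.
Of 8 immediate early and heat shock genes 2 were lower, Nfkbia and Hsp90aa1, and 6 were neither, with a median of -0.08. Of 7 glycolysis genes 2 were lower, Ldha and Pfkp, and 5 were neither, with a median of -0.34.

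**Figure D4:**
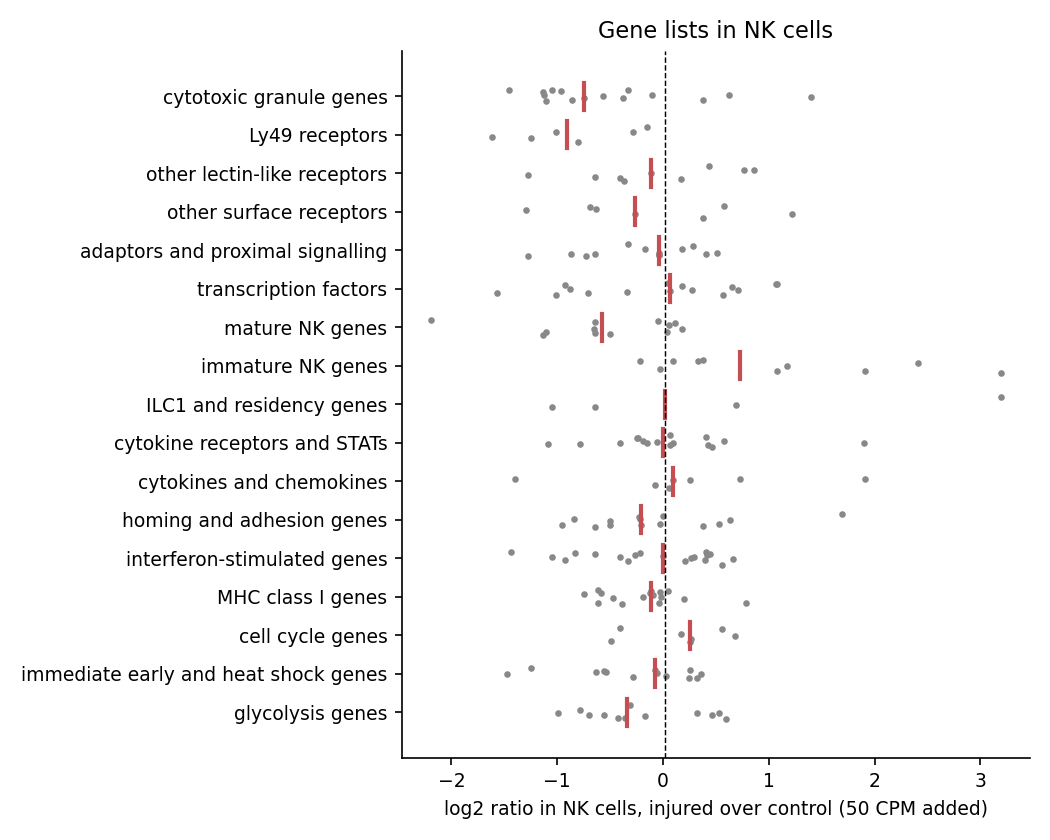
Log2 ratio of injured over control in NK cells, with 50 CPM added to each level, for the members with at least 10 counts of 17 gene lists, those of other cell types left out. Each point is 1 gene, the dashed line is the median of all genes and the bar is the median of the list, lowest of the 17 for the Ly49 receptors at -0.91 and highest for the immature NK genes at 0.73.

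Among the genes with at least 50 counts, and after the exclusions of the naming rule, Emb stood highest in injured NK cells, with 886 CPM in injured and 127 CPM in control, 7.0-fold (4.59 to 10.7) higher. Il18r1 and Cxcr4 followed. Txnip, which restrains glucose uptake, was at 1146 CPM in injured and 357 CPM in control, 3.21-fold higher, and the survival gene Bcl2 at 1389 and 537 CPM, 2.59-fold (1.97 to 3.37) higher. The rest of the 10 highest were Nisch, Tecpr1, Tab2, Resf1 and Ogt, between 2.81-fold and 3.93-fold higher. The same genes in the other lymphocytes give a scale. Injured over control, Emb was 1.33-fold in CD8 T cells and 5.79-fold in B cells, Cxcr4 2.33-fold and 3.07-fold, Txnip 1.84-fold and 1.44-fold, and Bcl2 2.01-fold and 1.31-fold, all higher in injured. Whether the NK difference exceeds those was not tested.

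The lowest was Calr, which encodes the endoplasmic reticulum chaperone calreticulin, with 2 counts in injured and 153 in control, 12.4-fold (3.37 to 103) lower. The chaperone genes Hspd1 and Hspa8 were also among the 10 lowest. Hspd1 had 1 count in injured and 77 in control, a ratio of control over injured of 12.5 (2.17 to 499), and Hspa8 was at 451 CPM in injured and 1637 CPM in control. Manf, another endoplasmic reticulum stress gene, had 2 and 74 counts. Lgals1, which encodes galectin 1, was at 434 CPM in injured and 2168 CPM in control. Ebna1bp2, a nucleolar protein gene, had 0 and 50 counts, which is 2.7-fold lower with injured set at 3 counts over the NK sum. That setting is not an interval limit. Klra4, Lat2, Tubb4b and Sept7 completed this set. Injured over control, Calr was 0.734-fold in CD8 T cells and 0.488-fold in B cells, Hspa8 0.555-fold and 0.468-fold, and Lgals1 0.913-fold and 0.889-fold. Actb, which encodes beta actin, was at 5244 CPM in injured NK cells and 12759 CPM in control NK cells, while its injured over control ratio was 1.17 in CD8 T cells and 0.804 in B cells.

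**Figure D5:**
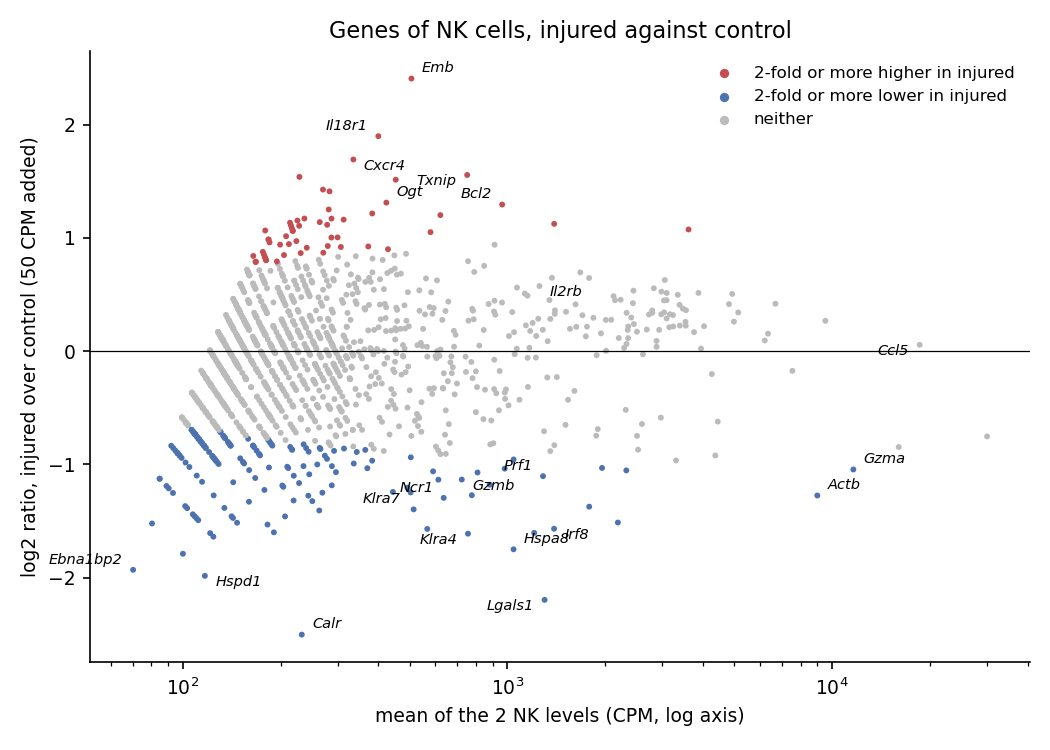
Log2 ratio of injured over control NK cells, with 50 CPM added to each level, against the mean of both levels on a log axis, for the 1345 genes with at least 50 counts. Red points were 2-fold or more higher in injured (57 genes) and blue points lower (168 genes), with Emb highest and Calr lowest.

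The injured NK cells fell into cells with and without Il7r, the interleukin 7 receptor gene, which mature mouse NK cells largely lack. This division was made after the values were seen. Il7r had a UMI in 6 of 14 injured (42.9%, 17.7 to 71.1) and 1 of 83 control NK cells (1.2%, 0.0305 to 6.53), and after thinning in 4 of 14 and 1 of 82. Its level was 434 CPM in injured NK cells and 2.81 CPM in control NK cells, against 841 CPM in injured and 840 CPM in control CD8 T cells. All 6 injured cells with Il7r had Klrk1 and Klrd1, and also the rule gene Ncr1, whose presence the choice of cells largely fixes. 3 of the 6 met the rule with only 3 genes. Cd3d and Trac were at 0 in them. Trbc1, a T cell receptor chain gene, was found in 4 of the 6, at 1016 CPM (644 to 1525), against 486 CPM (283 to 779) in the 8 injured cells without Il7r and 506 CPM in injured CD8 T cells.

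Granule RNA differed between the injured cells with and without Il7r. The 6 injured cells with Il7r held 0, 0, 0, 0, 2 and 16 Gzma UMIs, and the 8 without it held between 22 and 145. As sums, Gzma was at 795 CPM in injured cells with Il7r, 11958 CPM in injured cells without it and 15578.5 CPM in the 82 control cells without it. Gzmb was at 0, 715 and 1003 CPM in the same order, Prf1 at 309, 1116 and 1733 CPM, and Klra4 at 0, 572 and 1165 CPM. The 1 control cell with Il7r was unlike the injured ones, with 91 Gzma, 7 Gzmb and 21 Prf1 UMIs. Klrk1 stood at 1060, 1144 and 977 CPM. In the other direction Emb was at 1944, 200 and 128 CPM and Ltb, the lymphotoxin beta gene, at 486, 0 and 14.2 CPM. Tmem176b stood at 353, 0 and 2.84 CPM and Cxcr6, a receptor of tissue-resident lymphocytes, at 221, 0 and 0 CPM. Both rest on few UMIs of the injured cells with Il7r. Tmem176b had 8 in 3 cells, 6 of them in 1 cell, and Cxcr6 had 5 in 2 cells, 4 of them in 1 cell. Eomes was found in 1 of the 6 cells. Gata3, a factor of type 2 innate and helper cells, did not separate the 2 kinds of injured cell. It was found in 4 of the 6 with Il7r and 5 of the 8 without, at 221, 229 and 82.4 CPM in the same order. The ILC2 gene Il1rl1 was at 0 in all 6, and the type 2 cytokine genes Il5 and Il13 were at 0 in both libraries. Il18r1 and Cxcr4 were high in both kinds of injured cell, Il18r1 at 707, 629 and 142 CPM and Cxcr4 at 707, 429 and 134 CPM. Irf8 was lower in both, at 265, 944 and 2083 CPM, as was Lgals1, at 44.2, 687 and 2131 CPM.

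Some values of the injured against control comparison rested on these 6 cells. Without cells that had an Il7r UMI, the log2 ratio of Emb was 0.49 in place of 2.41, that of Il18r1 was 1.82 in place of 1.90, and the median of the immature NK genes was -0.18 in place of 0.73. The median of the mature NK genes was -0.15 in place of -0.57, that of the granule genes -0.51 in place of -0.74, and that of the Ly49 receptors -0.85 in place of -0.91. Of the 5 granule genes called lower, 2 were still 2-fold lower, Serpinb6b and Fasl, while Gzma, Gzmb and Prf1 were not. Those 2 rest on few counts. Serpinb6b had 1 injured count (11.2-fold, 1.97 to 447) and Fasl had 5 (2.44-fold, 1.02 to 7.66). Of the other genes named above, Eomes (1.39-fold lower), Klre1 (1.88-fold), Ccl4 (1.94-fold), Ldha (1.91-fold) and Pfkp (1.22-fold) also fell short of the call, as did Emb, Cd7 and Ogt among the higher ones. Irf8 was 2.21-fold and Klra4 2.04-fold lower. Lgals1 was 3.10-fold lower. In that comparison 1242 genes had at least 50 counts, against 1345 above. Of the 1242, 52 were higher, 27 of them among the 57 above, and 189 were lower, 112 of them among the 168. Some genes left the earlier sets only by falling under 50 counts, as Nisch and Tap1 did. In all of these the injured side is 14 cells or fewer from 1 library, and the injury and the library cannot be told apart.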

How the data were processed

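The authors deposited 1 matrix per library of raw UMI counts, whole numbers for each gene and barcode; per the file headers, Cell Ranger 4.0.0 made them. DESeq2 1.26.0 and 1.28.1, featureCounts 1.6.3, STAR 2.7.2c and the builds GRCm38 and mm10 appear, without roles, in the submitters' processing notes. The matrices held 32285 gene IDs, 32158 of them in GENCODE M21. 38 symbols stood on more than 1 ID, and 3 list genes (Aldoa, Mx1, Mx2) had no unique match and were left out.

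Barcodes under 200 genes or over 15% mitochondrial UMIs were left out. The NK members and the gene lists were chosen with earlier results of these data known. CD8 T cells had a Cd3e or Cd3g and a Cd8a or Cd8b1 UMI and no Cd4, B cells Cd79a with Cd79b or Ms4a1, and ILC2-like cells at least 3 of 8 markers with Gata3 or Il1rl1. T and B cells overlap no NK cell. Doublets were scored from simulated doublets with 40 neighbours, 0.8% per 1000 cells, and not removed in the values given.

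Counts were summed over the NK cells of each library and given as CPM. Shares carry exact Clopper-Pearson, levels exact Poisson and ratios exact conditional 95% intervals, which cover counting error only. A side at 0 was set at 3 counts. Log2 ratios had 50 CPM added. The named genes were the 10 highest and 10 lowest log2 ratios between libraries, the highest against other cells and CD8 T cells, and list members with most counts or past 2-fold. Not named were mitochondrial, ribosomal, haemoglobin, antigen receptor, unnamed and sex-linked genes, and genes whose NK level was under 50% of that in the other cells of the library where they were higher. Actb, Il5, Il13 and the genes of the Il7r comparison were chosen after their values were seen. Promoter sequences matched by symbol; Klrd1 and Ccl5 had none. Python 3.11.15, numpy 2.4.6, scipy 1.17.1 and scikit-learn 1.9.0 were used, and the ratio step was tested on simulated data. Some members of the homing list are not reported here.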

Additional observations from a re-analysis of the deposited data

How the results depend on the processing

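The share of NK cells stayed lower in injured under the filters, rules and denominators tried. It was 0.193% of injured cells when the rule was applied to cells thinned to 1000 UMIs, and with NK, T, B and ILC2-like cells as the denominator it was 5% in injured and 11.4% in control. Of Ptprc cells it was 5.63% in control. With at least 4 of 7 markers it was 0.384% in injured and 3.50% in control.

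The number of genes called moved with the limits. The number of genes tested also changed with the minimum of counts. Genes higher in injured numbered 340 of 3430 at a minimum of 20 counts, 11 of 568 at 100 counts and 180 of 1345 at 1.5-fold. Genes lower numbered 473, 67 and 367 of the same totals. Against the other cells the injured library gave 39 genes higher, and against CD8 T cells 88 higher and 82 lower, of fewer genes tested. Scaling by the median of ratios gave 74 higher and 143 lower of 1345.

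Among the 20 genes named by rank none changed sign under any setting. Of the 17 list medians 9 changed sign under at least 1 setting, most of them close to 0, and 3 of these moved by over 1.5-fold, that of the immature NK genes to -0.18 without cells with an Il7r UMI. With that setting the cytokine and chemokine median was -0.36, that of the adaptors 0.16 and that of the transcription factors -0.10. By their intervals, 9 shares of cells with a UMI moved after thinning, as fewer UMIs were read. The ILC1 and residency list had a median of -0.59 with 10 CPM added, and the cell cycle list -0.45 in cells with an Eomes UMI. There Nisch was 0.54, and with 200 CPM added Emb was 1.73. Lgals1 was -1.57 without cells with an Il7r UMI. The cells without Il7r and with Eomes were chosen after seeing the data. The causes were not tested. No paired analysis was possible because each group had 1 library, and for the same reason no library could be left out. With 57592 UMIs in 14 injured cells, the 3 counts at which a gene at 0 was set equal 52.1 CPM there, which is not an interval limit.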
